A study of Mus musculus with 6 samples.

Results

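The Cyp4 fatty acid hydroxylases described here are 8 mouse liver genes, Cyp4a10, Cyp4a12a, Cyp4a12b, Cyp4a14, Cyp4f13, Cyp4f14, Cyp4f15 and Cyp4v3. They were chosen by symbol, and all 8 were found among the 55802 rows of the gene count table. Their identifiers in the table are ENSMUSG00000066072 (Cyp4a10), ENSMUSG00000066071 (Cyp4a12a), ENSMUSG00000078597 (Cyp4a12b), ENSMUSG00000028715 (Cyp4a14), ENSMUSG00000024055 (Cyp4f13), ENSMUSG00000024292 (Cyp4f14), ENSMUSG00000073424 (Cyp4f15) and ENSMUSG00000079057 (Cyp4v3). The series set 3 liver libraries from oil-treated wild-type mice (control) against 3 from wild-type mice treated with CCl4, all of the C57BL/6 strain, and its title presents CCl4 as a fibrosis model. CCl4 (carbon tetrachloride) is a liver toxin that cytochrome P450 enzymes of hepatocytes turn into a radical. The labels state no dose, duration, age or sex. They do not say either whether each library is a separate animal, so a p-value here reflects library-to-library spread, some of which may be technical.

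Enzymes of the CYP4 family are haem proteins of the endoplasmic reticulum that add a hydroxyl group at or near the methyl end of a fatty acid, the omega position. The Cyp4a genes are known for their response to the fatty acid receptor PPAR-alpha in liver, and their enzymes act on medium and long chain fatty acids and on arachidonic acid. Cyp4a12a and Cyp4a12b are known in mice as genes of the male liver and kidney, set by androgen and by the male pattern of growth hormone. The Cyp4f enzymes act on leukotrienes and other long chain fatty acids, and Cyp4v3 is the mouse counterpart of the human gene mutated in a crystalline retinal dystrophy.

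Some members have near-identical copies, which limits what a read count can say of each. In the GENCODE M21 transcripts, the coding sequences of Cyp4a12a and Cyp4a12b matched at 98.5% of bases, and that of Cyp4a10 matched at 97.2% with Cyp4a32 and at 96.6% with Cyp4a31, neither of them a member. Cyp4a14 and Cyp4a10 matched at 75.4%. Of all 100-base stretches of a transcript, 35.8% of those of Cyp4a12a and 36.2% of those of Cyp4a12b also lay in another Cyp4 gene, as did 12.7% of those of Cyp4a10, 8.22% of those of Cyp4a31 and 20.1% of those of Cyp4a32. For Cyp4a14, Cyp4f13, Cyp4f14, Cyp4f15 and Cyp4v3 the share was 0%. Shares were larger for shorter stretches: of 50-base stretches, 30.5% of those of Cyp4a10 and 48.9% of those of Cyp4a12a were shared. For the genes at 0% above, the 50-base share was at most 2.72% (Cyp4f14). The following 60-base coding stretches, 5′ to 3′, are those in which the copies differ at the most positions. They are shown because only reads over such positions can tell the copies apart. Capitals mark positions at which the copies shown together are not all alike (9 positions in the first 3 and 4 in the other 2).
Cyp4a10, coding bases 200 to 259: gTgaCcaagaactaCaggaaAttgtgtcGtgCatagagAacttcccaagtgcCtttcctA
Cyp4a31: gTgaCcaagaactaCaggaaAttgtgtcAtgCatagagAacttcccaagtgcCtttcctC
Cyp4a32: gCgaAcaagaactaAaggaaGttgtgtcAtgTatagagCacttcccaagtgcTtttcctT
Cyp4a12a, coding bases 624 to 683: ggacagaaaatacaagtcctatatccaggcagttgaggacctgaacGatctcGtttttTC
Cyp4a12b: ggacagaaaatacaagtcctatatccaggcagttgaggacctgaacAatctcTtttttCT

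The members share the haem-binding loop, which carries the cysteine that holds the haem iron. Its 30 coding bases (GENCODE M21), found in each of the 8 genes by a preset amino acid pattern, are shown so that the members can be compared. Capitals mark bases that differ from Cyp4a10 in the Cyp4a genes, and from Cyp4f14 in the Cyp4f genes and Cyp4v3. Cyp4a12a and Cyp4a12b have the same loop, Cyp4a14 differs from Cyp4a10 at 2 bases, and Cyp4v3 differs from Cyp4f14 at 9.
Cyp4a10: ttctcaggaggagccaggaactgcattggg
Cyp4a12a: ttctcaggaggagcAaggaactgcattggg
Cyp4a12b: ttctcaggaggagcAaggaactgcattggg
Cyp4a14: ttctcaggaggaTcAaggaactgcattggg
Cyp4f13: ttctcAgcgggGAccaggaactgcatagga
Cyp4f14: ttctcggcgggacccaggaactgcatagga
Cyp4f15: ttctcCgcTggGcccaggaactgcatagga
Cyp4v3: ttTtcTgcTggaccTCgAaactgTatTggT

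The libraries held 18929972 to 20042731 counts, and values are given as CPM, counts scaled to library size after TMM scaling. Markers of hepatocytes were abundant in every library, with a summed level of 123064 to 128827 CPM in controls and 129784 to 139199 in CCl4 livers for 10 genes. Y-linked transcripts were found in every library: Ddx3y stood at 101 ± 6.16 and 90.8 ± 3.504 CPM, Eif2s3y at 62.1 ± 2.84 and 56.1 ± 1.33 CPM, Uty at 18.8 ± 0.799 and 17.4 ± 0.731 CPM and Kdm5d at 24.4 ± 1.04 and 19.8 ± 0.106 CPM (mean ± SD, n = 3). Xist stood at 1.85 ± 0.181 and 0.214 ± 0.0731 CPM. A gene was called when its adjusted p in edgeR's quasi-likelihood test, with Benjamini-Hochberg adjustment over all 15579 genes tested, was under 0.05.

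All 8 members passed the filter on low counts. In CCl4 livers 6 of them fell (Cyp4a12a, Cyp4a12b, Cyp4f13, Cyp4f14, Cyp4f15 and Cyp4v3), Cyp4a10 rose, and Cyp4a14 was not called. Of all genes tested, 41.3% were called, 21.2% higher and 20.1% lower. The median log2 fold change of the members was -0.65, beside 0.00 for all genes tested. In all 8 members the CPM ranges of the groups did not overlap, which held for 54% of all genes tested. The summed level of the 8 members was 1493, 1703 and 1598 CPM for the control libraries and 1341, 1134 and 1274 CPM for the CCl4 libraries, so the groups did not overlap there either. In bulk liver RNA, fewer cells of a type and less RNA per cell cannot be told apart.

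**Figure D1:**
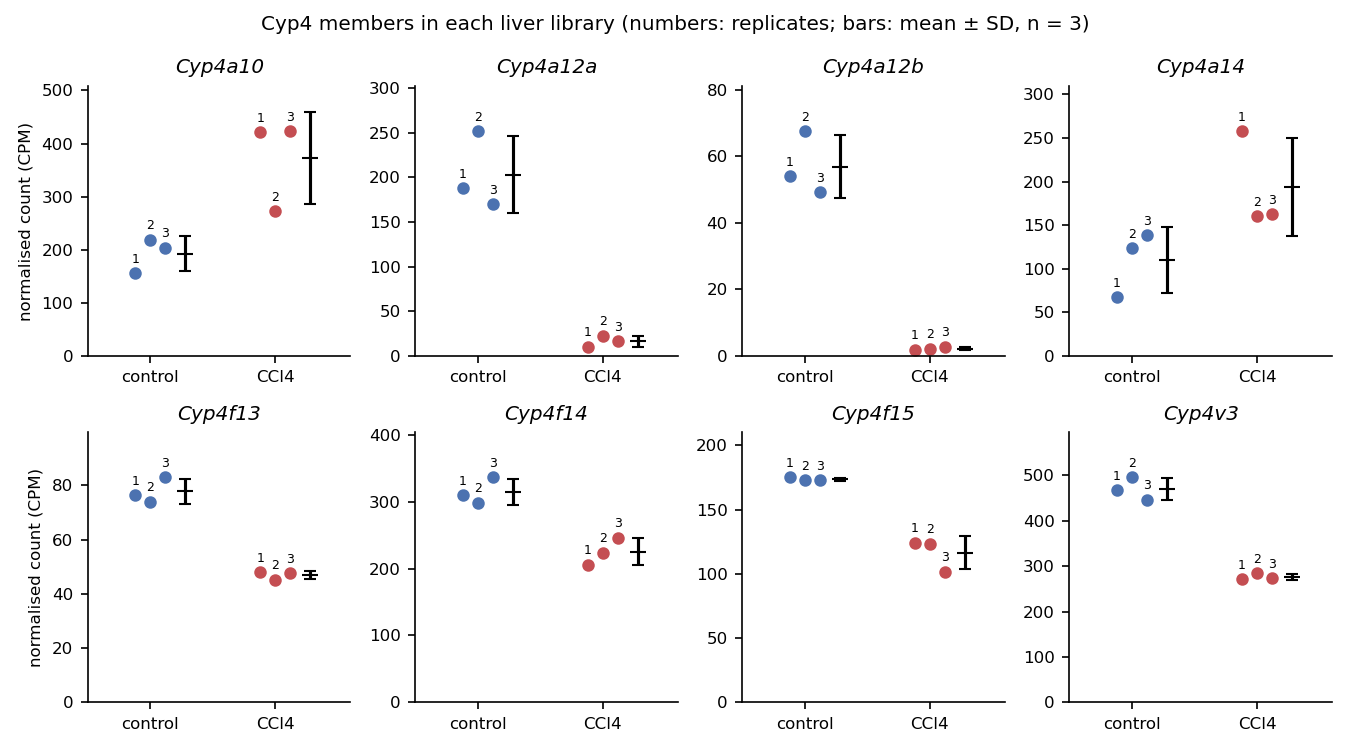
Normalised counts (CPM, linear axes from 0) of the 8 members in the 3 control (blue) and 3 CCl4 (red) libraries; each point is a library, numbered by replicate, and the bars give mean ± SD. Cyp4a12a and Cyp4a12b lie near 0 in the CCl4 livers, Cyp4a10 and Cyp4a14 lie above their controls, and Cyp4f13, Cyp4f14, Cyp4f15 and Cyp4v3 lie below theirs.

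Cyp4a12a, the main omega-hydroxylase of arachidonic acid in male mice, showed one of the largest falls among the members. It stood at 188, 252 and 169.7 CPM in control replicates 1 to 3 and at 10.4, 22.8 and 16.4 CPM in CCl4 replicates 1 to 3. Every CCl4 library lay far below every control, and CCl4 replicate 1 was the lowest. The level fell 12.3-fold, with a 95% interval of 6.58 to 22.9 (log2 change -3.62 with SE 0.34, adjusted p = 0.001299). Its close copy Cyp4a12b stood at 54.00, 67.6 and 49.1 CPM in control replicates 1 to 3 and at 1.81, 2.12 and 2.75 CPM in CCl4 replicates 1 to 3. These CCl4 levels rest on 36, 43 and 56 counts. Cyp4a12b fell 25.4-fold, with a 95% interval of 19.03 to 34.01 (log2 change -4.67 with SE 0.18, adjusted p = 3.91e-06). Added together, the pair went from 260.0 ± 52.8 to 18.7 ± 6.39 CPM (log2 change -3.79 with SE 0.32, adjusted p = 7.81e-04 in edgeR). Within a library, the log2 ratio of Cyp4a12b to Cyp4a12a went from -1.82 ± 0.06 in controls to -2.59 ± 0.49 in CCl4 livers (exact two-sided permutation test, p = 0.10, the smallest that 3 against 3 libraries can give). This difference of -0.77, computed with 0.5 CPM added to each value, was -0.29 with 2 CPM added.

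Cyp4a10, a PPAR-alpha target that acts on lauric acid, went the other way. It stood at 156, 219 and 204 CPM in control replicates 1 to 3 and at 421, 272 and 424 CPM in CCl4 replicates 1 to 3. Every CCl4 library was above every control, with CCl4 replicate 2 the lowest of its group. The level rose 1.93-fold, with a 95% interval of 1.32 to 2.83 (log2 change 0.95 with SE 0.22, adjusted p = 0.01898). The call was lost when any of 3 libraries was left out, at an adjusted p of 0.0549 without control replicate 3, 0.0601 without CCl4 replicate 1 and 0.0905 without CCl4 replicate 3. Testing without the low-count filter ended it as well (adjusted p = 0.0755), as did a fit with the replicate number as a block.

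Of the near-copies of Cyp4a10, Cyp4a31 rose and Cyp4a32 was not called. Cyp4a31 stood at 5.74, 14.9 and 6.14 CPM in control replicates 1 to 3 and at 58.5, 50.1 and 60.1 CPM in CCl4 replicates 1 to 3. It rose 6.31-fold, with a 95% interval of 3.09 to 12.9 (log2 change 2.66 with SE 0.39, adjusted p = 0.00575). Without control replicate 2, the highest of the controls, its log2 fold change was 3.24, which is over 1.5 times as large a fold. Cyp4a32 stood at 66.9, 147 and 73.9 CPM in control replicates 1 to 3 and at 44.1, 36.99 and 26.9 CPM in CCl4 replicates 1 to 3. All CCl4 values were below all controls, with control replicate 2 far above the other controls. Cyp4a32 was not called (log2 change -1.41 with SE 0.41, adjusted p = 0.05001), but was called without control replicate 1 (-1.62, adjusted p = 0.0462), without control replicate 2 (-0.97, adjusted p = 0.0236), with a stricter filter on low counts (adjusted p = 0.0461), in DESeq2 (0.00554) and in limma-voom (0.00799). Of the counts of the 3 genes together, Cyp4a31 went from 2.86 ± 0.924% to 12.3 ± 1.47% and Cyp4a32 from 31.3 ± 6.47% to 7.99 ± 2.54%. Summed over Cyp4a10, Cyp4a31 and Cyp4a32, the level was 228, 381 and 284 CPM in controls and 524, 359 and 511 CPM in CCl4 livers, with an overlap of the groups. This sum was not called (log2 change 0.64 with SE 0.24, adjusted p = 0.0877 in edgeR), so the rise of Cyp4a10 did not pass the test once its copies were counted with it. The sum was called without control replicate 2 (0.86, adjusted p = 0.0228), without CCl4 replicate 2 (0.80, adjusted p = 0.0349), and also by limma-voom (adjusted p = 0.0298). How reads were placed between the copies was not tested.

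Cyp4a14, a PPAR-alpha target that shares no 100-base stretch with another Cyp4 gene, stood at 67.3, 124 and 138 CPM in control replicates 1 to 3 and at 258, 160.4 and 162 CPM in CCl4 replicates 1 to 3. The CCl4 values were above the controls, but control replicates 2 and 3 came close to CCl4 replicates 2 and 3. Cyp4a14 was not called (log2 change 0.82 with SE 0.36, adjusted p = 0.143), and the 95% interval of its log2 fold change ran from -0.13 to 1.77. In limma-voom it was called (adjusted p = 0.0401). The log2 ratio of Cyp4a14 to Cyp4a10 within a library went from -0.86 ± 0.32 in controls to -0.95 ± 0.37 in CCl4 livers (exact two-sided permutation test, p = 0.7), whereas that of Cyp4a12a to Cyp4a10 went from 0.07 ± 0.29 in controls to -4.49 ± 0.88 in CCl4 livers (exact two-sided permutation test, p = 0.10). For the latter ratio, the nearest libraries of the groups were -0.26 in control replicate 3 and -3.55 in CCl4 replicate 2.

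**Figure D2:**
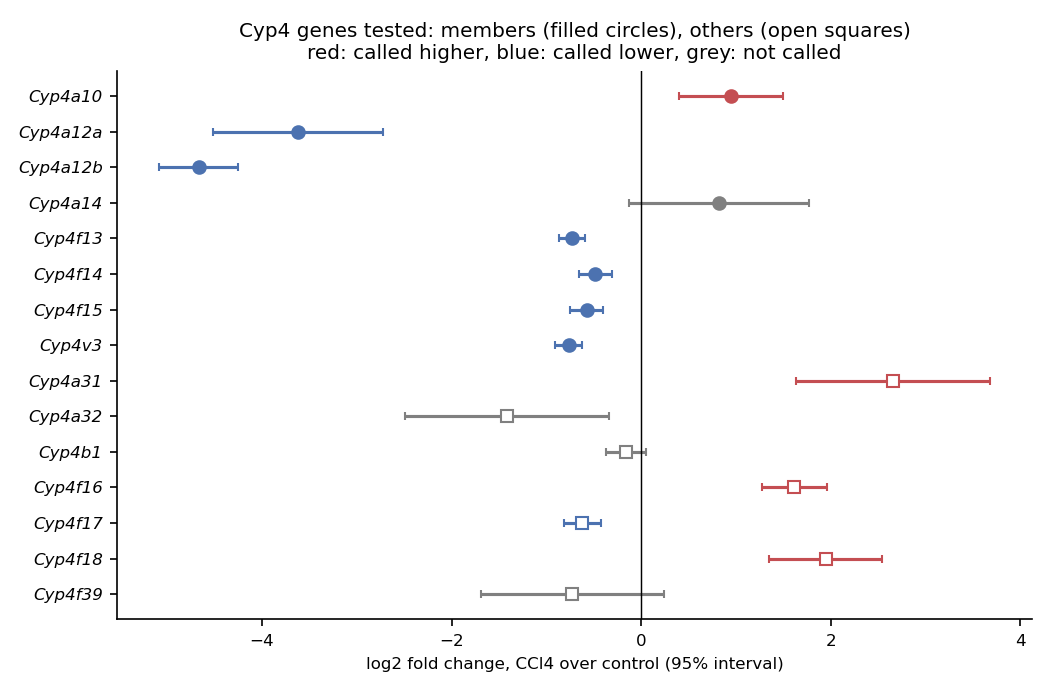
Log2 fold change of CCl4 over control with its 95% interval (edgeR) for the 8 members (filled circles) and the 7 other Cyp4 genes tested (open squares). The intervals of Cyp4a12a and Cyp4a12b lie wholly below -2, those of the 3 Cyp4f members and Cyp4v3 between -1 and 0, and that of Cyp4a14 spans 0.

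The make-up of the Cyp4a counts differed between the groups, while their sum was not called. The sum of Cyp4a10, Cyp4a12a, Cyp4a12b and Cyp4a14 was 465, 662 and 561 CPM in controls and 692, 457 and 605 CPM in CCl4 livers. The groups overlapped, and the sum was not called (log2 change 0.06 with SE 0.19, adjusted p = 0.841 in edgeR). Of the counts of the 6 Cyp4a genes with any count (the 4 members, Cyp4a31 and Cyp4a32), Cyp4a12a went from 30.7 ± 4.23% to 2.62 ± 1.46% and Cyp4a12b from 8.64 ± 1.25% to 0.338 ± 0.0955%. Cyp4a10 went from 29.1 ± 2.600% to 54.7 ± 5.799% and Cyp4a14 from 16.4 ± 4.67% to 28.5 ± 4.59%. Cyp4a10 took the largest share in each CCl4 library, at 53.1, 49.97 and 61.2%. In the controls Cyp4a12a and Cyp4a10 had like shares.

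**Figure D3:**
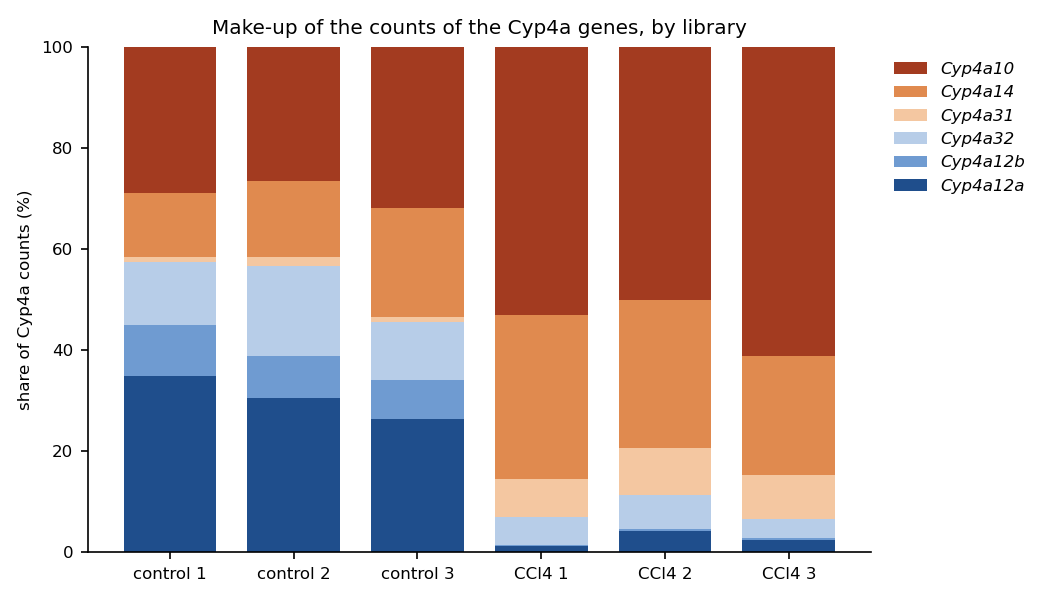
Share of each gene (%, stacked) in the summed counts of the 6 Cyp4a genes with counts, for each of the 6 libraries. Cyp4a12a and Cyp4a12b (dark and mid blue) take a large part of the bar in each control and a thin slice in each CCl4 library, where Cyp4a10 and Cyp4a14 (dark red and orange) take most of it.

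Cyp4f14, Cyp4f15, Cyp4f13 and Cyp4v3 all fell, each to a smaller degree than Cyp4a12a. Cyp4f14, the leukotriene B4 hydroxylase of mouse liver, stood at 309, 298 and 336 CPM in control replicates 1 to 3 and at 206, 223 and 246 CPM in CCl4 replicates 1 to 3. The highest CCl4 library, replicate 3, was still below the lowest control (log2 change -0.48 with SE 0.08, adjusted p = 0.00105). Cyp4f15, a related hydroxylase of the same gene cluster, stood at 175, 173 and 173 CPM in control replicates 1 to 3 and at 124, 123 and 102 CPM in CCl4 replicates 1 to 3. The controls were close together (SD 1.17 CPM), and CCl4 replicate 3 was the lowest library (log2 change -0.58 with SE 0.08, adjusted p = 4.14e-04). Cyp4f13, a further gene of this cluster, stood at 76.4, 74.02 and 82.9 CPM in control replicates 1 to 3 and at 48.1, 45.2 and 47.6 CPM in CCl4 replicates 1 to 3. It fell 1.66-fold, with a 95% interval of 1.51 to 1.82 (log2 change -0.73 with SE 0.06, adjusted p = 2.62e-05). Cyp4v3, which hydroxylates medium chain fatty acids, stood at 468, 495 and 446 CPM in control replicates 1 to 3 and at 271, 285 and 273 CPM in CCl4 replicates 1 to 3. It fell 1.699-fold, with a 95% interval of 1.54 to 1.87 (log2 change -0.76 with SE 0.06, adjusted p = 2.36e-05). In none of these 4 genes did the groups overlap, which held for 54% of all genes tested.

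The 3 Cyp4f members summed to 566 ± 23.8 CPM in controls and 389 ± 9.07 CPM in CCl4 livers (log2 change -0.54 with SE 0.06, adjusted p = 1.22e-04 in edgeR). The log2 ratio of Cyp4f14 to Cyp4f15 went from 0.85 ± 0.09 in controls to 0.95 ± 0.29 in CCl4 livers (exact two-sided permutation test, p = 0.8), in a design of 3 against 3 libraries that cannot go below 0.10. The mean log2 level of the 4 Cyp4a members minus that of the 3 Cyp4f members went from -0.40 ± 0.29 in controls to -1.37 ± 0.08 in CCl4 livers (exact two-sided permutation test, p = 0.10). This mean weighs each gene alike whatever its level, so the large falls of Cyp4a12a and Cyp4a12b outweigh the higher levels of Cyp4a10 and Cyp4a14. The summed level of the 4 Cyp4a members went from 563 ± 99.0 to 585 ± 118 CPM, so by sums Cyp4a did not fall relative to Cyp4f. After adjustment over the 5 ratios compared, the smallest p was 0.167.

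The set of RefSeq start sites used here held these 4 genes and none of the Cyp4a members. The 80 bases before each start site are shown because the genes fell together. Their build is GRCm38.p6, while no source used here names the build behind the counts. Cyp4f13, Cyp4f14 and Cyp4f15 lie on chromosome 17 and Cyp4v3 on chromosome 8. Capitals mark the fixed letters of a match to one of 4 motifs searched on both strands. The motifs were the nuclear receptor half-site AGGTCA, the HNF4A-type site CAAAGTCCA, the STAT-type site TTCNNNGAA and the TATA box letters TATAAA. In windows from 250 bases before to 50 after the start, the sole match among these members was TTCNNNGAA at base -22 of Cyp4f13. Of all 32851 promoter windows of the table, 8.298% held this motif, 16.3% AGGTCA, 0.475% CAAAGTCCA and 13.6% TATAAA. Cyp4f14 has 4 start sites in the table, and the most upstream one was used.
Cyp4f13, chr17:32947362-32947441, minus strand: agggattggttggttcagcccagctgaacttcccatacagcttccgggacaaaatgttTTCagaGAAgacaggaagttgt
Cyp4f14, chr17:32917357-32917436, minus strand: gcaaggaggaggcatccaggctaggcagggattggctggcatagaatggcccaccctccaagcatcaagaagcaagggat
Cyp4f15, chr17:32685579-32685658, plus strand: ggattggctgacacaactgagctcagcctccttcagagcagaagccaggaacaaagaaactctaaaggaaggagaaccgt
Cyp4v3, chr8:45333164-45333243, minus strand: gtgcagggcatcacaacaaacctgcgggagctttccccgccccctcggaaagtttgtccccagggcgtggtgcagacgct

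Levels of different genes were compared per kilobase of the transcript with the longest coding sequence. In controls the order, in CPM per kilobase, was Cyp4f14 (142 ± 8.77), Cyp4v3 (123 ± 6.49), Cyp4a10 (91.4 ± 15.7), Cyp4a12a (83.9 ± 17.8), Cyp4f15 (80.1 ± 0.538), Cyp4f13 (44.4 ± 2.63), Cyp4a14 (43.99 ± 15.01) and Cyp4a12b (23.8 ± 3.998). The ranges of Cyp4a10, Cyp4a12a and Cyp4f15 overlapped from one to the next, as did those of Cyp4f13, Cyp4a14 and Cyp4a12b. In CCl4 livers the order was Cyp4a10 (177 ± 41.2), Cyp4f14 (101 ± 9.102), Cyp4a14 (77.6 ± 22.3), Cyp4v3 (72.6 ± 1.93), Cyp4f15 (53.7 ± 5.95), Cyp4f13 (26.8 ± 0.874), Cyp4a12a (6.82 ± 2.57) and Cyp4a12b (0.9300 ± 0.199). There the ranges of Cyp4f14, Cyp4a14 and Cyp4v3 overlapped from one to the next. Cyp4a10 moved from the third place to the first and Cyp4a12a from the fourth to the seventh.

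Of the 12 other Cyp4 genes, 7 could be tested, and 3 of these were called higher and 1 lower. Besides Cyp4a31, Cyp4f16 rose from 2.96 ± 0.577 to 9.07 ± 0.5499 CPM (log2 change 1.62 with SE 0.15, adjusted p = 5.50e-05) and Cyp4f18, a leukotriene B4 hydroxylase of neutrophils and other myeloid cells, from 0.729 ± 0.2001 to 2.83 ± 0.499 CPM (log2 change 1.95 with SE 0.27, adjusted p = 4.25e-04). Neutrophil markers moved with Cyp4f18: 7 of 7 tested were called higher, none of the 8 listed was at 0 in all libraries, and their summed level was 7.78 to 11.3 CPM in controls and 30.9 to 34.98 in CCl4 livers. A listed gene near 0 in the controls could pass the filter on low counts only through its CCl4 counts, so the 7 of 7 leans upward. Macrophage markers moved with Cyp4f18 too, with 5 of 8 called higher and 1 lower and a summed level of 263 to 339 CPM in controls and 609 to 695 in CCl4 livers. Their part in the rise of Cyp4f18 was not tested. Cyp4f17 fell from 30.1 ± 3.33 to 19.6 ± 0.928 CPM (log2 change -0.62 with SE 0.09, adjusted p = 5.30e-04). Cyp4b1 stood at 17.9 ± 0.874 and 16.03 ± 1.697 CPM (adjusted p = 0.212 in edgeR) and Cyp4f39 at 0.605 ± 0.115 and 0.363 ± 0.204 CPM, neither of them called. Cyp4a29, Cyp4a30b, Cyp4f37 and Cyp4f40 had no count in any library, and Cyp4x1 had too few to test.

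Genes of electron transfer and of haem synthesis moved in both directions, some of them with calls that other fits did not keep. Por, the reductase that passes electrons to every microsomal P450, rose from 199 ± 25.4 to 255 ± 21.03 CPM (log2 change 0.35 with SE 0.10, adjusted p = 0.0201). Por was no longer called when 1 of 4 libraries was left out, control 1 or 3 or CCl4 1 or 3 (adjusted p of 0.0612, 0.0519, 0.0686 and 0.06200 in turn). Cyb5b, a mitochondrial cytochrome b5, fell from 766 ± 68.6 to 477 ± 34.7 CPM (log2 change -0.68 with SE 0.08, adjusted p = 2.27e-04), and Cyb5a, the microsomal form, from 694 ± 36.1 to 605 ± 37.4 CPM (log2 change -0.20 with SE 0.07, adjusted p = 0.0465). Cyb5a lost its call under upper quartile scaling (adjusted p = 0.216), under library size alone (0.539), with a stricter filter (0.0577) and on leaving out control 1 or 3 or CCl4 2 or 3 (0.132, 0.129, 0.0994 and 0.0921 in turn). Cyb5r3, the cytochrome b5 reductase, stood at 423 ± 12.8 and 406 ± 34.2 CPM and was not called. Among genes of haem synthesis, 1 of 8 tested genes were called higher and 4 lower (median log2 fold change -0.19). The gene called higher was Alas1, the rate-limiting enzyme, which rose from 161 ± 36.96 to 371 ± 3.51 CPM (log2 change 1.20 with SE 0.15, adjusted p = 8.88e-04). Alad, the next enzyme (-0.35), and Fech, which inserts the iron (-0.38), were among the genes that fell.

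More of the regulators and other targets of PPAR-alpha fell than rose. Ppara itself fell from 121 ± 9.73 to 50.3 ± 2.84 CPM (log2 change -1.27 with SE 0.07, adjusted p = 3.91e-06). Among PPAR-alpha and its partners 0 of 9 tested genes were called higher and 5 lower (median log2 fold change -0.43), including Creb3l3, a liver transcription factor that acts with PPAR-alpha (-0.48). Among its targets 3 of 34 tested genes were called higher and 20 lower (median log2 fold change -0.37). The thiolase gene Acaa1a fell from 206 ± 4.36 to 123 ± 6.92 CPM (log2 change -0.74 with SE 0.06, adjusted p = 2.25e-05). Cd36, a fatty acid transporter that macrophages also make, rose from 42.03 ± 5.48 to 144 ± 13.1 CPM (log2 change 1.78 with SE 0.10, adjusted p = 9.65e-06). The part of macrophages in this rise was not tested. Acot1, an acyl-CoA thioesterase, stood at 17.2 ± 3.76 and 9.29 ± 2.83 CPM (log2 change -0.89 with SE 0.26, adjusted p = 0.0325). Acot1 was not called when 1 of 4 libraries was left out, control 2 or 3 or CCl4 1 or 3 (adjusted p of 0.0867, 0.0929, 0.107 and 0.06199 in turn), nor with every gene tested (0.1397). Fgf21, a liver hormone under PPAR-alpha, stood at 1.82 ± 0.771 and 1.104 ± 0.493 CPM and was not called, but was called lower without CCl4 replicate 3 (-1.14, adjusted p = 0.0349).

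The next list holds enzymes that carry an omega-hydroxylated acid onward to a dicarboxylic acid and through the peroxisome. Of this list, which shares some genes with the PPAR-alpha targets, 1 of 16 tested genes were called higher and 10 lower (median log2 fold change -0.44). Scp2, a peroxisomal thiolase and sterol carrier, fell from 4330.3 ± 24.8 to 2275 ± 203 CPM (log2 change -0.93 with SE 0.08, adjusted p = 2.50e-05), while Abcd2, a peroxisomal fatty acid transporter, rose from 33.5 ± 9.33 to 76.6 ± 9.43 CPM (log2 change 1.19 with SE 0.21, adjusted p = 0.00703). Among genes that make or break down eicosanoids, which several CYP4 enzymes hydroxylate, 4 of 13 tested genes were called higher and 5 lower (median log2 fold change 0.24). Ptgr1, a prostaglandin and leukotriene reductase (1.95), and Ptgs1, a cyclooxygenase (0.39), were higher. The arachidonic acid epoxygenase Cyp2j5 (-1.03) and the epoxide hydrolase Ephx2 (-0.73) were lower.

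Other male-biased liver genes fell alongside Cyp4a12a and Cyp4a12b. Among genes known to be higher in male liver, 0 of 15 tested genes were called higher and 14 lower (median log2 fold change -1.90), with Ugt2b1, a glucuronosyltransferase, at -1.51 and Mup3, a major urinary protein, at -2.08. Of 22 listed genes known to be higher in female liver, 14 passed the filter on low counts. Of these 14, 8 were called higher and 0 lower (median log2 fold change 2.32). A listed gene near 0 in the controls could pass that filter only through its CCl4 counts. This count and median therefore lean upward and are no mirror of the male-biased list. CCl4 replicate 3 stood apart on this list, whose summed level was 327, 323 and 598 CPM in CCl4 replicates 1 to 3. Sult2a2, a sulfotransferase, stood at 0.403, 0.444 and 51.6 CPM in these libraries, and Hao2, a hydroxy acid oxidase, at 1.21, 1.83 and 23.9 CPM. Without that library 9 genes of the list were called higher and 2 lower, the latter being Cyp2c40 (-3.44) and Cyp2c69 (-4.24). For the male-biased list the number called lower was 14 with and without it. Cyp4a12a had a log2 change of -3.61 and Cyp4a12b of -4.85 without it. Atp6v0d2, a proton pump subunit, rose from 4.36 ± 0.556 to 21.2 ± 6.41 CPM and Cyp2b9 from 1.72 ± 0.848 to 81.96 ± 39.99 CPM. These lists were written with earlier results of these data known. Among genes of growth hormone signalling, 0 of 10 tested genes were called higher and 5 lower (median log2 fold change -0.35), and the receptor gene Ghr fell from 774 ± 32.7 to 402 ± 18.02 CPM (log2 change -0.95 with SE 0.06, adjusted p = 9.70e-06). On the sex chromosomes, Xist (-3.07, adjusted p = 8.81e-05 in edgeR) and Kdm5d (-0.30, adjusted p = 0.00589) were called lower. Xist had only 37, 36 and 31 counts in control replicates 1 to 3 and 3, 4 and 6 in CCl4 replicates 1 to 3. It passed the filter on low counts only through the controls, so its fold change describes a trace signal. Kdm5d was not called under library size alone (adjusted p = 0.108). Ddx3y (-0.15), Uty (-0.11) and Eif2s3y (-0.15) were not called, though Ddx3y was without control replicate 1 (adjusted p = 0.0391).

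**Figure D4:**
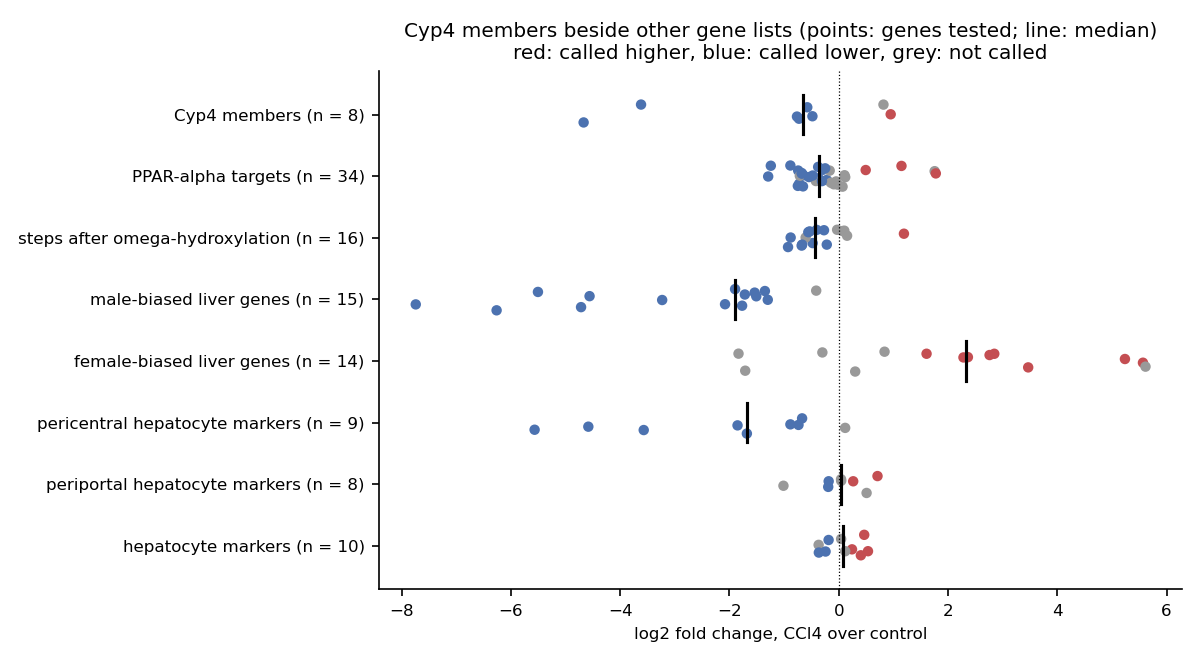
Log2 fold change of CCl4 over control for each gene tested in the Cyp4 members and 7 other lists; points are genes, coloured by call, and black lines are list medians. Cyp4a12a and Cyp4a12b lie in the range of both the male-biased genes and the pericentral hepatocyte markers. The other members that fell lie in the range of every other list shown except the general hepatocyte markers, so the ranges do not sort them by list.

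Markers of pericentral hepatocytes mostly fell, and those of stellate cells and cholangiocytes mostly rose. Among general hepatocyte markers 4 of 10 tested genes were called higher and 3 lower (median log2 fold change 0.08). Among markers of pericentral hepatocytes, the zone that activates CCl4, 0 of 9 tested genes were called higher and 8 lower (median log2 fold change -1.68), and their summed level was 10336 to 11119 CPM in controls and 2302 to 3397 in CCl4 livers. Glul went from 1255 ± 68.00 to 106 ± 17.5 CPM and Cyp2e1 from 7195 ± 378 to 1992 ± 546 CPM. Among periportal markers 2 of 8 tested genes were called higher and 2 lower (median log2 fold change 0.04), with a summed level of 6069 to 6181 CPM in controls and 5085 to 5596 in CCl4 livers. Among stellate cell and myofibroblast markers 6 of 8 tested genes were called higher and 0 lower (median log2 fold change 0.91), with a summed level of 295 to 349 CPM in controls and 909 to 1002 in CCl4 livers. Among cholangiocyte markers 4 of 5 tested genes were called higher and 0 lower (median log2 fold change 1.58), with a summed level of 50.3 to 93.9 CPM in controls and 252 to 335 in CCl4 livers. Among endothelial markers 0 of 6 tested genes were called higher and 1 lower (median log2 fold change -0.08), with a summed level of 211 to 222 CPM in controls and 201 to 219.6 in CCl4 livers. Among lymphocyte markers 2 of 6 tested genes were called higher and 0 lower (median log2 fold change 0.00), with a summed level of 21.8 to 26.6 CPM in controls and 39.2 to 47.6 in CCl4 livers. No marker of these lists was at 0 in all libraries. The part of these cells in the members' changes was not tested.

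The genes outside the family whose pattern was most like each member were found among 8001 genes with a mean of at least 10 CPM, by the smallest distance between mean-centred log2 CPM over the 6 libraries. With 6 libraries in 2 groups this mostly matches the size of the group difference. Nearest to Cyp4a12a were Slc22a28 (distance 0.39; 22.9 ± 3.32 and 1.43 ± 0.418 CPM) and Lhpp (distance 0.78; 65.1 ± 6.41 and 4.17 ± 1.01 CPM). Nearest to Cyp4a12b were Susd4 (distance 0.42; 22.7 ± 2.23 and 0.856 ± 0.362 CPM) and Oat (distance 0.48; 1069 ± 82.3 and 44.6 ± 9.27 CPM), of which Susd4 is on the male-biased list and Oat on the pericentral list. For Cyp4a10 they were Arfgap3 (distance 0.42; 10.1 ± 0.813 and 19.8 ± 3.89 CPM) and Csf1r (distance 0.44; 54.1 ± 7.58 and 105 ± 12.6 CPM), a macrophage marker, and for Cyp4a14 Nipal1 (distance 0.56; 10.1 ± 2.24 and 21.6 ± 3.85 CPM) and G2e3 (distance 0.70; 8.29 ± 1.302 and 13.8 ± 1.86 CPM).
Closer matches were found for the members that fell by less. They were Abat (distance 0.06; 459 ± 30.99 and 334 ± 24.8 CPM) and Fdx1 (distance 0.07; 85.2 ± 4.84 and 60.7 ± 6.59 CPM) for Cyp4f14, and Ranbp10 (distance 0.08; 135 ± 3.33 and 90.4 ± 7.57 CPM) and Sphk2 (distance 0.09; 66.8 ± 1.17 and 44.6 ± 3.601 CPM) for Cyp4f15. For Cyp4f13 they were Echdc1 (distance 0.05; 24.3 ± 1.69 and 14.6 ± 0.668 CPM) and Ubr4 (distance 0.09; 241 ± 8.15 and 149 ± 3.23 CPM). For Cyp4v3 they were Hip1r (distance 0.04; 35.97 ± 2.36 and 21.01 ± 0.244 CPM) and Acaa1a (distance 0.09; 206 ± 4.36 and 123 ± 6.92 CPM), a PPAR-alpha target.

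The 6 members that fell kept their calls in each alternative fit run. Over the alternative fits, the log2 fold change of Cyp4a12a ran from -3.92 to -3.37 and that of Cyp4a12b from -4.85 to -4.52. It ran from -0.55 to -0.33 for Cyp4f14, from -0.62 to -0.43 for Cyp4f15, from -0.77 to -0.58 for Cyp4f13 and from -0.81 to -0.62 for Cyp4v3. The highest adjusted p among these 6 genes was 0.0128, for Cyp4a12a. Cyp4a10 stayed above 0 in each fit, from 0.81 to 1.13, and kept its call in 9 of 14 alternatives. Its sum with its copies, given above, is not among these. Cyp4a14 also stayed above 0, from 0.56 to 1.01, and was called in 1 of 14.

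**Figure D5:**
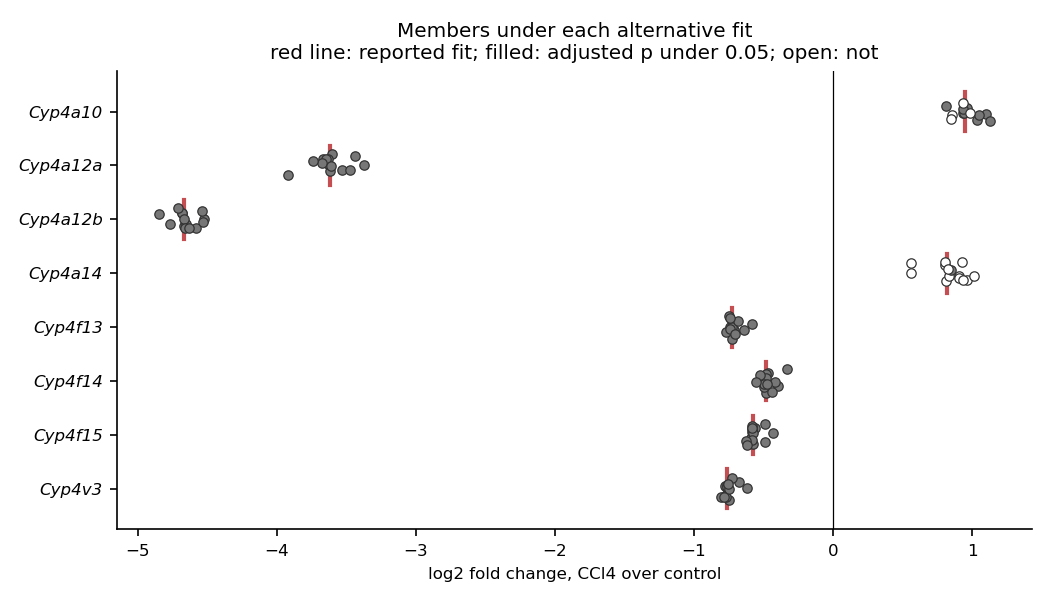
Log2 fold change of each member in the reported fit (red line) and in each alternative (circles; filled where the adjusted p was under 0.05). The 6 members that fell are filled throughout, Cyp4a10 is mixed, and Cyp4a14 is filled once.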

How the data were processed

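The 6 liver libraries were made with a kit for messenger RNA, per the labels' protocols. Reads were cleaned of adapters and of low-quality reads and aligned with HISAT2, per the series' design text, and counted per gene with featureCounts, per the submitters' processing notes. The deposited table holds raw counts for each gene. For the aligner and counter versions, the build, the annotation, strandedness and multi-mapping reads, the entry is the same: not given in the sources used here. Columns were mapped to samples by name, and symbols came from GENCODE M21 by gene identifier (52083 of 55359 matched). A further 443 rows have other identifiers and hold 0.543 to 0.679% of the counts. They stayed in the fit.

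The test was edgeR 4.0.16 under R 4.3.3 (filterByExpr, TMM, glmQLFit and glmQLFTest with robust estimation, Benjamini-Hochberg adjustment), with no covariate. SEs are the log2 fold change over the square root of F. On simulated counts of the same design (15078 genes tested), 96.6% of 88 genes with a log2 change of 1 were recovered, with 7 false calls among 14878 unchanged genes. Every simulated gene was given the same relative spread between replicates. The share recovered therefore need not hold for more variable genes, such as Cyp4a10 (SE 0.22) and Cyp4a14 (SE 0.36). Intervals cover counting and replicate spread as modelled, and no molecular identifiers are mentioned. Alternatives were other scalings, other filters, DESeq2 1.42.0, limma-voom (limma 3.58.1), the replicate number as a block, each library left out, near-copies summed, and other pseudocounts for the ratios.

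The members and the 20 other lists were chosen with earlier results of these data known, so no list was tested as a set. The rule for named genes took all members, Ppara, Por, Fgf21, Acot1, Xist and Ddx3y, short lists in full, and from each list the called gene of smallest adjusted p and that of highest mean CPM in each direction. Not all of these are printed, and some results are not reported here. Cyp4a32, Cyp4b1, Cyp4f18, Cyp4f39, Sult2a2, Hao2, Cyp2c40 and Cyp2c69 were named after their values were seen. Transcripts of GENCODE M21 gave lengths, coding identity (Biopython 1.88) and shared stretches. Sequences before start sites are from the set of RefSeq start sites used here, which held 4 of the 8 members.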

Additional observations from a re-analysis of the deposited data

How the results depend on the processing

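Of 768 values of 55 other named genes under 14 alternative fits, 738 kept direction and side of the threshold. 17 lost a call, 10 gained one and 3 changed sign, all 3 in genes not called: Cyb5r3 (0.0266 under upper quartile scaling, 0.0881 under library size alone) and Uty (0.0394 under library size alone). Genes called lower over the whole table numbered 3124, and 1678 under library size alone, where calls ran 4817 higher to 1678 lower and the median log2 fold change moved to 0.15. Under upper quartile scaling they ran 4103 to 2177. All members kept their direction in both. Members called higher numbered 1, but 0 with no filter on low counts, 0 with the replicate block and 2 in limma-voom. With 1 library left out they ran from 0 to 1. The sum of Cyp4a10, Cyp4a31 and Cyp4a32 was called in limma-voom at 0.65, and with 1 library left out it ran from 0.48 to 0.86. The sum of the 4 Cyp4a members, not called in any of these, ran from -0.0795 to 0.20, below 0 without control replicate 1 and without CCl4 replicate 1. The ratio of Cyp4a12b to Cyp4a12a changed by -0.29 with a pseudocount of 2 CPM, which is close to the level of Cyp4a12b in CCl4 livers. The cause of the other changes was not tested.

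The labels do not pair the libraries by replicate number, and the values did not settle whether such a pairing exists. Same-numbered deviations from the group means correlated at 0.13, 0.07 and 0.21, each the highest value for its control replicate. CCl4 replicate 2, however, correlated best with control replicate 1 (0.10). With the replicate block, 6416 genes were called against 6427, and Cyp4a10 had an adjusted p of 0.08995. The level of Cyp4a12b in CCl4 livers rests on 36 to 56 counts per library.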
